A study of Homo sapiens with 3 samples.

Results

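The genes examined here encode 34 heterogeneous nuclear ribonucleoproteins (hnRNPs), FET proteins and other RNA-binding proteins with arginine-glycine-rich stretches, out of 41749 gene names on the arrays. They were chosen by name, and each was read from its brightest non-control probe, with its other probes given beside it. RNA from HCT116, a line of human colorectal carcinoma cells, had been hybridised to 1-colour Agilent arrays of 60-base probes. Cells given a scrambled negative control (NC) gave 1 sample, and each of 2 knockdowns of PRMT1, an arginine methyltransferase, gave 1 more (labelled PRMT1-KD1 and PRMT1-KD2 and called KD1 and KD2 here). The knockdowns were made with oligonucleotides carried into the cells by a lipid reagent, and the 3 groups share the cell line and its medium. The labels give 2 siRNAs and do not state which of them is KD1 and which KD2. The study's methods name siRNA, whereas its results describe short hairpin RNAs.

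PRMT1 places asymmetric dimethyl marks on arginines, and the arginine-glycine-rich (RGG) stretches of RNA-binding proteins are its classical substrates. hnRNPs coat newly made transcripts and steer their splicing, export and decay. FET proteins couple transcription to RNA processing, and several proteins of this kind gather in stress granules. The arrays measured RNA, and neither protein nor methylation was measured.

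The siRNAs are shown as the perturbing agents, and 8 probes are shown because the results below turn on what they read. The siRNAs are written 5′ to 3′ as in the labels:
siRNA-1: cugaaguccaggucgauggugaaguc
siRNA-2: uuguagucuuuguacugcc
The probes of the targeted gene and of members lie in coding sequence and are written 5′ to 3′ with positions in hg19:
PRMT1, chr19:50188248-50189362, plus strand: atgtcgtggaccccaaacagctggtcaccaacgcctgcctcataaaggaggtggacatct
DDX5, chr17:62496285-62496344, minus strand: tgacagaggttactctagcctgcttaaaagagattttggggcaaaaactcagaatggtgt
HNRNPH3, chr10:70101030-70101364, plus strand: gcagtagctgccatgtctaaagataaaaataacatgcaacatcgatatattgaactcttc
HNRNPU, chr1:245018289-245018727, minus strand: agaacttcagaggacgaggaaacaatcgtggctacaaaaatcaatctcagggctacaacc
EWSR1, chr22:29688522-29688581, plus strand: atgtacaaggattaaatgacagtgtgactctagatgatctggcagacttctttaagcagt
RBM3, chrX:48433995-48434054, plus strand: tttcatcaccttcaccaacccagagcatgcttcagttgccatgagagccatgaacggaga
The probes of PRMT1, HNRNPH3 and HNRNPU extend over 1115, 335 and 439 bases of the genome, so each crosses a splice junction.

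HNRNPA3 has a pair of probes that the files place at the same position, chr2:178080329-178080388 on the plus strand. Capitals mark the 3 bases at which they differ:
A_24_P269895: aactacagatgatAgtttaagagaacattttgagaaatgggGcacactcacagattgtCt
A_33_P3422170: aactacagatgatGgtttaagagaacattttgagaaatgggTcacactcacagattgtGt
Counted from 1 at the 5′ end of the first probe, the differences are A14G, G42T and C59G.

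The targeted gene was examined first. PRMT1 had a normalized log2 intensity, set against the 75th percentile of each array, of 6.03 on NC, 2.75 on KD1 and 1.48 on KD2. The KD1 array thus held 10.3% of the NC signal and the KD2 array 4.26%. Epithelial markers EPCAM, CDH1, KRT8, KRT18 and KRT19 were all above background on the 3 arrays, and the labels call the cells colorectal cancer cells. Of the 5 fibroblast markers, COL1A1 alone was above background, with a signal of 331 to 544. COL3A1, DCN, PDGFRB and LUM were not above background on any array. Of the immune markers, CD14 was above background with a signal of 78.4 to 125, PTPRC was above it on KD2 only, CD3E on none, and CD68 was not found by that name. Of the endothelial markers, VWF and CDH5 were above background with signals of at most 89.3, and PECAM1, KDR and TEK were not. The arrays had 40.7% to 42.3% of their probes above background, and no non-control spot was saturated. With 1 array in each group no difference has a replicate check or a p-value of its own, and precision is limited by how few arrays there are.

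All 34 genes were above background on all 3 arrays. In KD1, 7 of them were higher than NC past 1.5-fold and 0 were lower, whereas 12.4% of all genes counted were higher and 14.0% were lower. In KD2, 3 of them were higher and 1 was lower, whereas 9.68% of all genes were higher and 10.6% were lower. The splicing factor HNRNPM and the RNA helicase DDX5 were higher in both knockdowns, which is 2 of 34 genes beside 4.87% of all genes. None of the 34 was lower in both, beside 5.62% of all genes. The NC array is shared by the comparisons, so the changes in KD1 and KD2 are not independent.

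The change of a typical member was small. The median log2 difference from NC over the 34 genes was 0.16 in KD1 and 0.07 in KD2, whereas it was -0.07 and -0.05 over all genes counted. In each knockdown 21 of the 34 (61.8%) lay above NC, beside 44.5% of all genes counted in KD1 and 45.7% in KD2. Members span a wide range of brightness, so they were also set beside the 7363 other genes within the 10th to 90th percentile of the members' mean signal. These had medians of -0.02 in KD1 and -0.09 in KD2, with 48.4% and 41.9% of them above NC. Of these other genes 11.2% were higher past 1.5-fold in KD1, 6.85% in KD2 and 4.47% in both. The middle 50% of the members ran from -0.09 to 0.46 in KD1 and from -0.11 to 0.33 in KD2, whereas it ran from -0.31 to 0.31 and from -0.34 to 0.20 for the other genes.

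**Figure D1:**
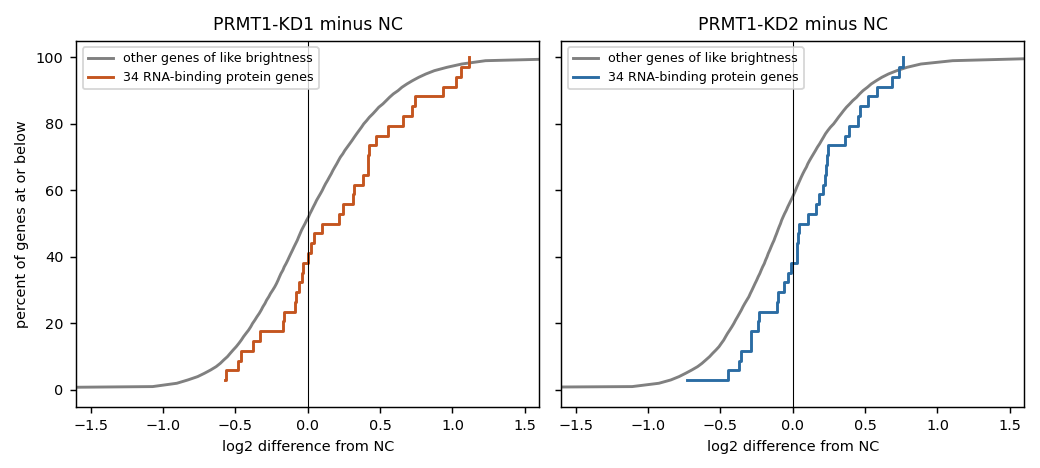
Cumulative percent of genes (vertical axis) at or below each log2 difference from NC (horizontal axis), for the 34 RNA-binding protein genes as steps and for 7363 other genes of like brightness as a grey line, in KD1 (left) and KD2 (right). The stepped line lies to the right of the grey line over most of its range, with medians of 0.16 against -0.02 in KD1 and 0.07 against -0.09 in KD2.

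The base composition of probes moved with the changes. Among probes that were above background on each array, the median difference from NC in KD1 went from 0.19 in the class of lowest GC content (up to 36.7%) to -0.32 in the class of highest (55% and above). In KD2 it went from 0.06 to -0.16. The brightest probes of the 34 genes had a median GC content of 38.3%, against 45% for all probes above background. When the median change of probes matched on GC content and on brightness was subtracted, the members' medians were 0.16 in KD1 and 0.19 in KD2. Then 7, 4 and 3 of the 34 were higher in KD1, in KD2 and in both, beside 12.1%, 10.3% and 5.00% of all genes. In KD1 HNRNPH3 dropped out (0.50) and KHDRBS1 came in (0.61), so that the 7 genes were not the same ones. HNRNPC entered the counts of KD2 and of both, at 0.59 in KD2.

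**Figure D2:**
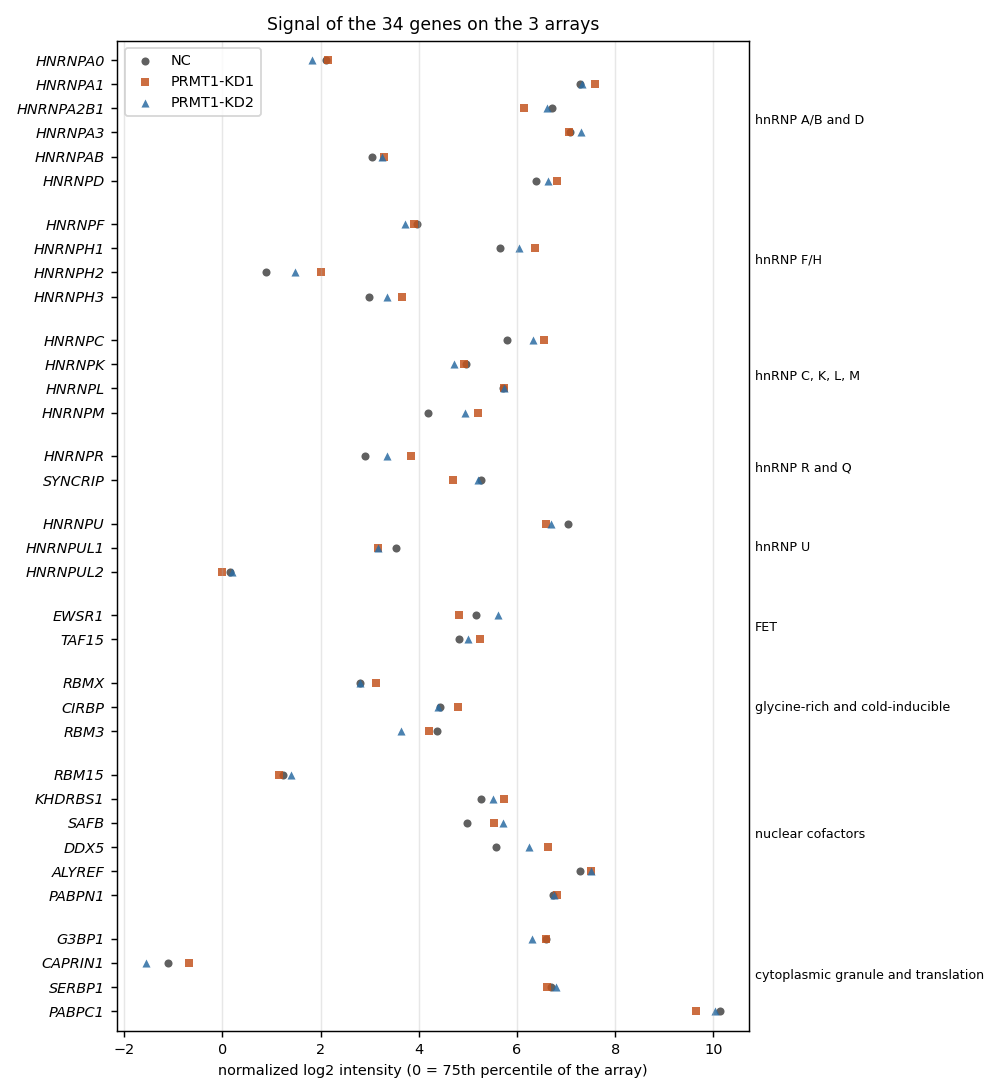
Normalized log2 intensity (horizontal axis, 0 is the 75th percentile of the array) of the brightest probe of each of the 34 genes, grouped by role, on the NC (circles), KD1 (squares) and KD2 (triangles) arrays, with 1 array each and no error bars. CAPRIN1 lies below 0 on all 3 arrays, HNRNPUL2 near 0, and all other genes above 0. Levels of different genes come from different probes and cannot be compared.

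Error bars on a change cover spot error alone, taken from the scanner software's error model, and came to 0.20 to 0.26 log2 units (1 SD) for every member. KD1 minus KD2 had a robust SD of 0.38 over the 17054 genes that were above background on each of the 3 arrays. Values of a gene are given below as normalized log2 intensity in the order NC, KD1 and KD2, followed by the log2 difference of each knockdown from NC.

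In the hnRNP A/B and D group, no gene was past 1.5-fold by its brightest probe. HNRNPA1, a shuttling splicing repressor, had levels of 7.28, 7.60 and 7.32, with differences of 0.31 and 0.04. HNRNPA2B1, which acts in splicing and RNA transport, had levels of 6.71, 6.14 and 6.61. Its difference of -0.57 in KD1, just short of the threshold of 0.585, was the lowest of the 34 in that knockdown, and that in KD2 was -0.10. HNRNPD, a decay factor of AU-rich mRNAs, had levels of 6.39, 6.81 and 6.63, with both knockdowns above NC (0.42 and 0.24). HNRNPAB likewise lay above NC in both, at 3.04, 3.29 and 3.25 (0.25 and 0.21). HNRNPA3 (7.09, 7.06 and 7.31) and HNRNPA0 (2.12, 2.16 and 1.83) lay on both sides of NC, with differences between -0.29 and 0.23.

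The F/H group, whose members bind runs of guanines and regulate splice sites, held 3 of the 7 genes that were higher in KD1. HNRNPH2 had levels of 0.90, 2.01 and 1.48. Its difference of 1.11 in KD1, a 2.16-fold signal, was the highest of the 34, and its difference of 0.58 in KD2 fell just short of 1.5-fold. HNRNPH1 had levels of 5.65, 6.36 and 6.04, with differences of 0.72 and 0.39, and its mean over probes, which takes in a pair not above background, gave 0.13 in KD1. HNRNPH3 followed with 2.997, 3.66 and 3.36 and differences of 0.66 and 0.36, and was no longer past 1.5-fold in KD1 once the GC and brightness trend was subtracted (0.50). In these 3 genes KD1 was highest, KD2 intermediate and NC lowest. HNRNPF had levels of 3.96, 3.90 and 3.72 and lay below NC in both knockdowns (-0.06 and -0.24). It lay above NC in KD1 in 4 of the 11 alternative settings and in KD2 with spike-in scaling.

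HNRNPC, HNRNPK, HNRNPL and HNRNPM differ in the sequences they bind, and HNRNPM changed most among them. HNRNPM had levels of 4.19, 5.21 and 4.95, so that its signal was 2.03-fold that of NC in KD1 and 1.70-fold in KD2 (1.02 and 0.76 on the log2 scale). HNRNPC, the uridine-tract binder of nascent transcripts, had levels of 5.80, 6.54 and 6.32, with a difference of 0.74 in KD1 and 0.52 in KD2. HNRNPL, the CA-repeat binder, differed least, at 5.71, 5.74 and 5.74 (0.02 and 0.03). HNRNPK, the poly-C binder, had 4.96, 4.92 and 4.73, with differences of -0.04 and -0.24.

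HNRNPR and SYNCRIP (hnRNP Q) are close relatives that act in splicing, RNA transport and translation, and their brightest probes went apart in KD1. HNRNPR had levels of 2.91, 3.84 and 3.36, a difference of 0.93 in KD1 and 0.45 in KD2. SYNCRIP had levels of 5.27, 4.71 and 5.21, a difference of -0.56 in KD1 and -0.06 in KD2. Each gene was read by other probe sequences, and the difference between the genes was not tested.

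The hnRNP U group, scaffold proteins with a DNA-binding SAP domain, was the one group in which every gene lay below NC in KD1. HNRNPU, whose printed probe reads the late part of its coding sequence, had levels of 7.04, 6.58 and 6.68 (-0.46 and -0.36). HNRNPUL1 had levels of 3.54, 3.16 and 3.18 (-0.38 and -0.37), and HNRNPUL2 had levels of 0.16, -0.01 and 0.20 (-0.17 and 0.04). None was past 1.5-fold. With spike-in scaling all 3 lay above NC in KD1, at 0.19, 0.27 and 0.48, and with the unscaled series matrix values HNRNPUL1 and HNRNPUL2 did so too.

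The FET genes lay on opposite sides of NC in KD1 and on the same side in KD2. EWSR1, a transcription and splicing cofactor, had levels of 5.16, 4.83 and 5.62, so that it lay below NC in KD1 (-0.33) and above it in KD2 (0.46). With spike-in scaling, the series matrix values and the mean over probes it lay above NC in KD1 as well. TAF15, a factor associated with the general transcription machinery, had levels of 4.82, 5.24 and 5.00, above NC in both (0.43 and 0.18).

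The cold-inducible and glycine-rich genes gave the one lowered call. RBM3, a cold-shock protein that supports translation, had levels of 4.38, 4.21 and 3.65, so that the KD2 array held 60.4% of the NC signal (-0.73) and the KD1 array 89.3% (-0.16). CIRBP, its cold-inducible relative, had levels of 4.43, 4.81 and 4.39 (0.38 and -0.03). RBMX, a splicing regulator also called hnRNP G, had levels of 2.81, 3.13 and 2.80 (0.32 and -0.01). RBM3 was the lowest of the 34 in KD2, and all 3 genes lay at or below NC there, whereas CIRBP lay above it in 5 and RBMX in 4 of the 11 alternative settings.

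Among the nuclear cofactors, 2 genes were past 1.5-fold. DDX5, a DEAD-box helicase in splicing and transcription, had levels of 5.57, 6.62 and 6.25, a 2.08-fold signal in KD1 and 1.61-fold in KD2 (1.06 and 0.68). SAFB, a scaffold attachment factor, had levels of 4.98, 5.54 and 5.72, with a difference of 0.55 in KD1, just short of the threshold, and 0.73 in KD2. KHDRBS1, a signalling-linked splicing factor, had levels of 5.26, 5.73 and 5.50 (0.47 and 0.24). Of the other cofactors none was past 1.5-fold. The mRNA export adaptor ALYREF had 7.29, 7.50 and 7.52 (0.21 and 0.23), and the nuclear poly(A)-binding protein PABPN1 had 6.72, 6.82 and 6.75 (0.10 and 0.03). RBM15, which guides the adenosine methylation complex to RNA, had 1.24, 1.16 and 1.40 (-0.08 and 0.16).

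None of the cytoplasmic granule and translation genes was past 1.5-fold against NC by its brightest probe. G3BP1, the nucleator of stress granules, had levels of 6.60, 6.60 and 6.31 (0.0024 and -0.29). Its partner CAPRIN1 had levels of -1.11, -0.69 and -1.55, above NC in KD1 (0.42) and below it in KD2 (-0.45). The signals of CAPRIN1 were low, at 53.3, 94.9 and 41.9. SERBP1, which binds ribosomes and mRNA, had 6.69, 6.60 and 6.80 (-0.09 and 0.11). PABPC1, the cytoplasmic poly(A)-binding protein, had 10.14, 9.65 and 10.03 (-0.48 and -0.11). EWSR1 and CAPRIN1 were the 2 genes of 34 that differed past 1.5-fold between KD1 and KD2, beside 18.6% of all genes.

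**Figure D3:**
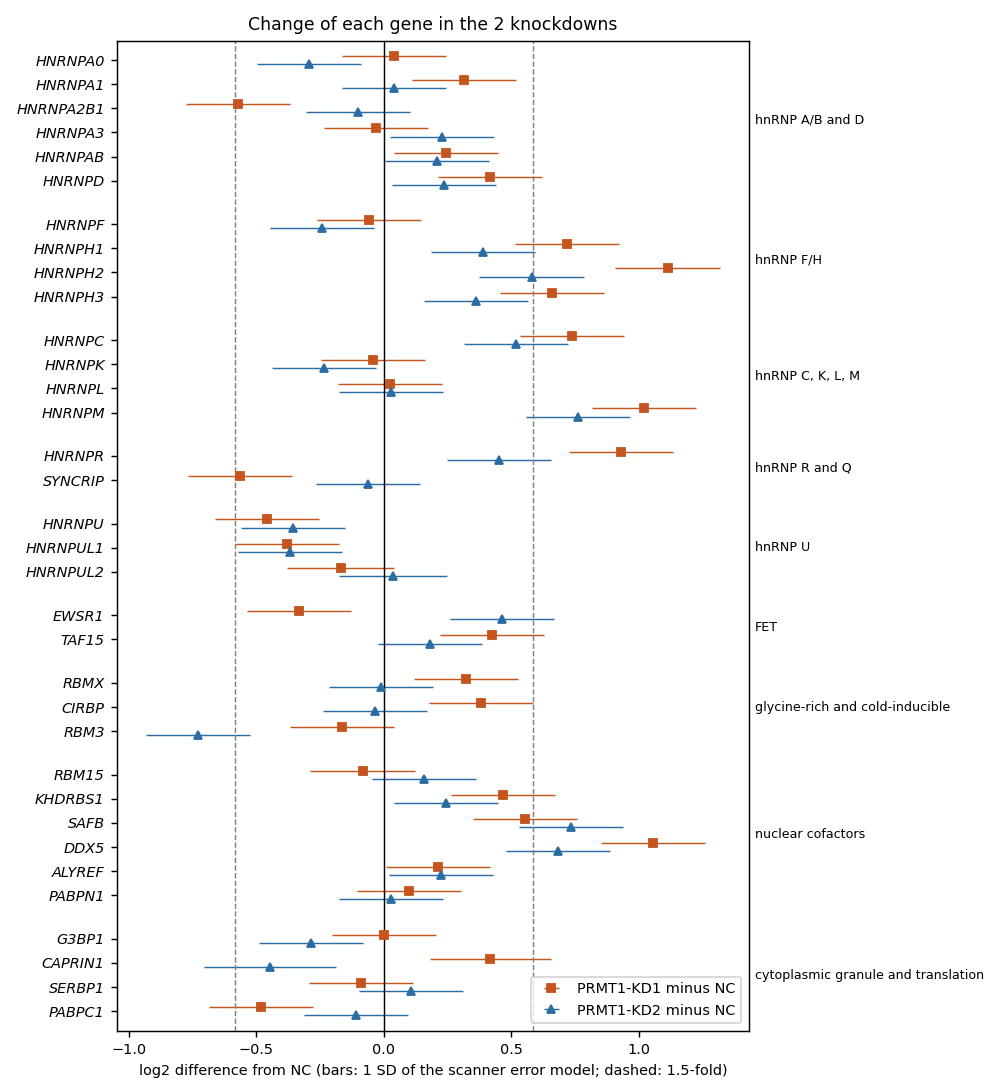
Log2 difference from NC (horizontal axis) of each of the 34 genes in KD1 (squares) and KD2 (triangles), with bars of 1 SD from the scanner error model, which cover spot error alone, and dashed lines at 1.5-fold. HNRNPM and DDX5 lie past the upper line in both knockdowns, 7 genes do so in KD1 and 3 in KD2, and RBM3 alone lies past the lower line, in KD2.

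A second fit took KD1 and KD2 as a group of 2 arrays against the lone NC array, with limma and Benjamini-Hochberg adjustment over 20050 genes. It assumes that NC would vary like the knockdown arrays, which was not measured. Its p-values rest on the spread between KD1 and KD2 alone, and limma draws the spread of each gene toward that over all genes. None of the 34 genes passed an adjusted p of 0.05, and the lowest adjusted p by limma was 0.543, for HNRNPM. At an unadjusted p under 0.05 there were 3 genes (HNRNPM, DDX5 and HNRNPH2), beside 8.12% of all genes. Each of them was higher on both knockdown arrays.

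Several genes were read by more than 1 probe, and their probes often gave different answers. Of the 34 genes 18 had several probes, and 17 had at least 2 that were above background on an array of each comparison, 43 probes in all. In KD1 the probes of 11 of these 17 genes lay on both sides of NC, and in 11 they spread over more than 1.5-fold. In KD2 these numbers were 5 and 3. The call at 1.5-fold depended on the probe in 9 of the 17 genes in at least 1 knockdown. The median spread between the lowest and highest probe of a gene was 0.62 log2 units in KD1 and 0.27 in KD2. Ranges on both sides of NC include narrow ones, such as SERBP1 in KD1 (-0.09 to 0.08). Some spreads rest on dim probes, such as an HNRNPA2B1 probe with a signal of 25.2 on NC, or on a bound, as in CIRBP. The same counts over all genes with several probes are not given, so whether such spreads are particular to the 34 was not tested.

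HNRNPA2B1 had the widest spread between probes in KD1. Its brightest probe lies at chr7:26240222-26240281, has a GC content of 60% and gave -0.57 and -0.10. A coding probe with a GC content of 35% had levels of 3.80, 5.10 and 4.91, or differences of 1.30 and 1.10. A further probe at chr7:26240974-26241033, with a GC content of 65%, gave -0.50 and 0.95. After the same subtraction, these became -0.16 and 0.18, 1.18 and 1.09, and -0.20 and 0.96. The coding probe was past 1.5-fold in both knockdowns before and after this step, the brightest in neither, and the further probe in KD2.

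HNRNPH3 had the probe that rose most of all probes of the 34 genes. This junction probe, printed above, had levels of 2.26, 3.74 and 3.59, with differences of 1.48 and 1.33, whereas the brightest probe gave 0.66 and 0.36. Both probes were past 1.5-fold in KD1, and the junction probe alone in KD2.

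SYNCRIP and HNRNPU turned sign with the probe in KD1. For SYNCRIP, the brightest probe gave -0.56 and its second probe (chr6:86324133-86324192) gave 0.57, with -0.06 and 0.11 in KD2. The files place the brightest SYNCRIP probe over 31 bases of the genome, fewer than its 60. For HNRNPU, the coding probe gave -0.46 and a dimmer probe (chr1:245014618-245014677) gave 0.44, with -0.36 and -0.06 in KD2. In HNRNPA1 the 3 probes gave 0.31, -0.09 and -0.48 in KD1 and lay within -0.02 to 0.04 in KD2.

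Other genes were raised by a dimmer probe alone. A second HNRNPD probe (chr4:83274857-83274916) gave 1.04 in KD1 and 0.06 in KD2, and a second HNRNPA0 probe gave 0.66 and -0.35. For CIRBP a second probe gave 0.63 and 0.48, whereas a further one, placed upstream, was above background on NC alone. HNRNPC was past 1.5-fold in KD1 by its brightest probe alone (0.74), and its other probes gave 0.55 and 0.16. The files place the probe with 0.55 on chromosome 2, whereas the others lie on chromosome 14, and what it reads was not tested.

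RBM3 and HNRNPK gave like values with each of their probes. The coding RBM3 probe printed above had levels of 1.63, 1.54 and 0.98, with differences of -0.09 and -0.65, next to -0.16 and -0.73 by the brightest probe. Both RBM3 probes were thus lower past 1.5-fold in KD2. The HNRNPK probes gave -0.04 and -0.07 in KD1 and -0.24 and -0.36 in KD2.

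The HNRNPA3 pair that differs at 3 bases gave 0.05 and 0.23 in KD1 and 0.32 and 0.56 in KD2, so that the probes lay on the same side of NC. All 5 HNRNPA3 probes lay within -0.03 to 0.23 in KD1 and -0.01 to 0.56 in KD2.

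The difference between KD1 and KD2 in EWSR1 and CAPRIN1 was also read by other probes. The coding EWSR1 probe printed above gave -0.04 in KD1 and 0.29 in KD2, and the dimmest gave 0.48 and 0.69. EWSR1 was higher in KD2 than in KD1 with each of its 3 probes, and it lay below NC in KD1 with 2 of them. KD1 minus KD2 was past 1.5-fold by the brightest probe alone (-0.79), and was -0.33 by the coding probe and -0.21 by the dimmest. The second CAPRIN1 probe gave -0.11 and -0.70, lower past 1.5-fold in KD2, so that KD2 was below KD1 with both. A second G3BP1 probe was lower just past 1.5-fold in KD1 (-0.59) and gave -0.02 in KD2. That probe was dim, with signals of 35.7 on NC, 31.6 on KD1 and 37.8 on KD2. The other RBMX probes lay below NC in both knockdowns, at -0.26 and -0.22 in KD1 and -0.49 and -0.21 in KD2. By its brightest probe RBMX lay at 0.32 and -0.01, and the files place that probe over 19 bases of the genome, fewer than its 60. The second SERBP1 probe gave 0.08 in KD1 and 0.05 in KD2.

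**Figure D4:**
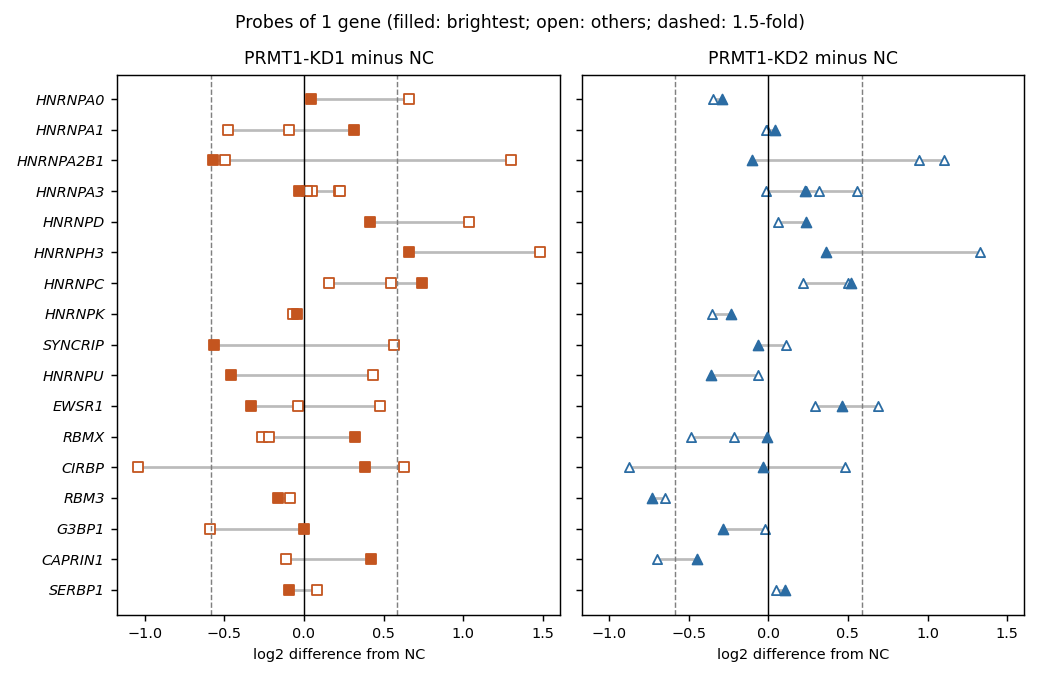
Log2 difference from NC (horizontal axis) of every usable probe of the 17 genes with at least 2 of them, in KD1 (left) and KD2 (right). Filled symbols are the brightest probe of a gene, open symbols its other probes, dashed lines mark 1.5-fold, and the lowest CIRBP symbol in each panel is a bound. The probes of HNRNPA2B1 span -0.57 to 1.30 in KD1, whereas those of RBM3 lie together at -0.16 and -0.09 there and at -0.73 and -0.65 in KD2.

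Other RNA-binding proteins were listed for comparison, 32 genes that share complexes or domains with the 34. Their median difference was 0.19 in KD1 and 0.13 in KD2. Of the 32 genes 8 were higher and 1 lower in KD1, beside 12.4% and 14.0% of all genes. In KD2 5 were higher and 1 lower, beside 9.68% and 10.6%. The 5 were higher in both knockdowns, beside 4.87% of all genes. They were HABP4, a relative of SERBP1 (1.35 and 1.16), the nucleolar helicase DDX21 (1.18 and 0.63), the translation regulator FXR1 (0.64 and 0.91), the P-body protein LSM14A (0.69 and 0.60) and the poly-C binder PCBP2 (0.60 and 0.66). KHSRP, a mediator of AU-rich mRNA decay, was the gene lower in both (5.62% of all genes were), with levels of 7.77, 7.17 and 6.35 (-0.60 and -1.42). These values are of the brightest probe alone. FXR1 has 3 probes and LSM14A, PCBP2 and KHSRP have 2 each, and their other probes are not given here.

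The other list, of 15 genes without PRMT1, held enzymes and readers of arginine methylation. It also took in partner proteins of these enzymes and genes of methyl-donor metabolism. In KD1 4 were higher and 2 lower, beside 12.4% and 14.0% of all genes, and in KD2 0 were higher and 2 lower, beside 9.68% and 10.6%. The 2 lowered genes were the same in both knockdowns, where 5.62% of all genes were lower. The methyltransferase PRMT7 had levels of 5.50, 4.66 and 4.55 (-0.83 and -0.95). TDRD3, a Tudor-domain reader of methylated arginine, was the other, with levels of -1.25, -1.92 and -2.01 (-0.67 and -0.76). Its signals were low, at 48.3, 40.4 and 30.6. PRMT7 has 3 probes and TDRD3 has 2, and only the brightest of each is given here. The list had a median difference of 0.17 in KD1 and 0.06 in KD2.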

How the data were processed

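The scanner tables that the authors deposited hold a fluorescence intensity for each spot, background-corrected by Agilent Feature Extraction 10.7.1.1 (submitters' processing notes) and not scaled between arrays. Probe positions are those of the files (hg19). Outlier-marked and control spots were left out (130 probes had no usable spot), repeat spots were averaged as log2 values, and the 75th percentile of each array was subtracted. A gene was read from its brightest probe by mean signal, and 1505 probes without a gene name were left aside. A gene counted where it was above background on at least 1 array compared. Where an array was not, its value was raised to the lowest signal above background there. The threshold was the 1.5-fold of the study's methods, whose p-value needs replicate arrays.

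The members and lists were chosen with earlier results of these data known. Genes named are PRMT1, the members, and, from the related RNA-binding proteins and the arginine methylation list, at most 5 in each direction by mean change among those past 1.5-fold in the same direction in each knockdown, besides markers of epithelial, fibroblast, immune and endothelial cells. Alternatives were quantile normalization, median scaling, a percentile over probes above background, 8 spike-in probes, normexp (offset 50), the series matrix intensity that the authors deposited unscaled, the mean over probes, outlier spots kept, other filters on dim probes, a fold of 2, other lone arrays and an intensity trend in limma. Subtraction of the change of probes of like GC content (5 classes) and brightness (10 classes) was chosen after seeing the data. A planned count of RGG motifs in the proteins was not run, and 1 marker and 1 probe sequence are not reported here. Calculations were tested on simulated data. limma 3.58.1 ran in R 4.3.3, and the rest in Python 3.11.15 with pandas 2.3.3, numpy 2.4.6 and matplotlib 3.10.9.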

Additional observations from a re-analysis of the deposited data

Results flagged for a closer look

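For EWSR1 and CAPRIN1 the knockdowns lay to either side of NC and differed from each other past 1.5-fold. EWSR1 was below NC in KD1 and above it in KD2, and KD1 minus KD2 was -0.79 log2 units. By its other probes KD1 minus KD2 was -0.33 and -0.21, short of 1.5-fold. CAPRIN1 was above NC in KD1 and below it in KD2, and KD1 minus KD2 was 0.86. Its signals were low, at 53.3 on NC, 94.9 on KD1 and 41.9 on KD2. With normexp background correction its differences from NC shrank to 0.20 in KD1 and -0.14 in KD2. With 1 array for each knockdown these differences were not tested. By its second probe CAPRIN1 lay below NC in both knockdowns, at -0.11 and -0.70.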

How the results depend on the processing

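The 11 changes of members past 1.5-fold kept their direction under all 11 alternatives that rescale, filter or average values. HNRNPM in both knockdowns and DDX5, HNRNPH2 and HNRNPR in KD1 stayed past 1.5-fold under each. The filters on dim probes could not test this, because all members were above background on each array. Median scaling, the percentile over probes above background, spike-in scaling, the series matrix and kept outlier spots shifted all members of an array alike. Quantile normalization, normexp, the mean over probes and the GC and brightness trend could move members separately. HNRNPM, DDX5, HNRNPH2, HNRNPR and SAFB have 1 probe each, so the mean left them unchanged. The call was lost for HNRNPH1 (0.13) and HNRNPC (0.48) in KD1 with the mean over probes, for HNRNPH3 (0.50) in KD1 with the GC and brightness trend subtracted, for RBM3 (-0.44) in KD2 with spike-in scaling, and for SAFB (0.58) and DDX5 (0.53) in KD2 with median scaling. Spike-in scaling and the unscaled series matrix values moved all genes. The median of genes above background became 0.58 in KD1 and 0.23 in KD2 with spike-in probes, and 0.35 and 0.04 with the series matrix. Spike-in scaling gave 24 members higher in KD1, 9 in KD2 and 8 in both, 0 lower in KD2, 14 apart between the knockdowns, and a median of 0.80 in KD1. The series matrix gave 17, 5 and 5 higher, 12 apart and a median of 0.57 in KD1. Both move all genes of an array by the same amount. The members' median therefore stood 0.22 above that of genes above background in KD1 and 0.14 in KD2 by construction, as in the setting reported. These settings cannot test that gap. The share of all genes higher against lower moved too, from 12.4% and 14.0% in KD1 to 49.5% and 1.88% with spike-in probes, 32.5% and 3.58% with the series matrix and 16.5% and 9.61% with median scaling, and in KD2 from 9.68% and 10.6% to 22.6% and 3.62%, 13.4% and 7.41%, and 6.05% and 18.1%. Normexp lowered these shares to 8.63% and 5% in KD1 and 4.09% and 4.99% in KD2, with 9 members higher in KD1 and 3 in KD2. Quantile normalization gave 5 higher in KD2, beside 10.2% of all genes, and 5 in both. Median scaling gave 2 lower and 1 higher in KD2, 1 higher in both and 9 apart. A percentile over probes above background gave 2 lower in KD1, beside 16.4% of all genes. The mean over probes gave 1 lower in KD1, beside 12.8% of all genes. In KD2 it gave 2 lower and 5 higher, beside 10.5% and 9.41%. The 1 gene lower in both was CIRBP (-0.76 and -0.77). Its mean takes in the upstream probe that was not above background in either knockdown. A fold of 2 left 3 higher in KD1 (HNRNPH2, DDX5 and HNRNPM), beside 4.19% of all genes. It left 0 higher or lower in KD2, beside 2.89% and 2.48%, and 0 higher in both and 0 apart. For counts in both knockdowns or apart, the share of all genes under these settings is not given, so they cannot be set against it. Subtraction of the GC and brightness trend gave 1 lower in KD1, SYNCRIP at -0.68, beside 10.6% of all genes. The cause of these shifts was not tested. Of members, limma called none in any fit at an adjusted p of 0.05, also with an intensity trend or with KD1 or KD2 as the lone array. Over all genes it called 0 to 258, and 83 in the setting reported. No paired analysis was possible because each group has 1 array, and no replicate could be left out. Counts of RGG motifs were not run.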

Other observations

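A further probe named CIRBP (chr19:1261584-1261640) reads another transcript than the brightest one, upstream on the chromosome. Its signal was 29.7 on NC, and it was not well above background in either knockdown. Set against the lowest signal above background there, it was at least 2.06-fold lower in KD1 and at least 1.83-fold lower in KD2. The remaining pair of probes named HNRNPH1 (chr5:179061360-179061419 and chr5:179061572-179061631) was not above background on any array.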
